A study of Sus scrofa domesticus with 4 samples.

Results

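FOS, JUN, MYC and SOCS3 are genes whose transcription responds within minutes to growth factors, cytokines, calcium and stress. They were chosen by name, as the probes whose transcript identifier maps through RefSeq to one of these symbols. All 4 genes were on the array, with 6 of its 43603 probes: 1 each for FOS, JUN and SOCS3 and 3 for MYC. The series holds 4 two-colour Agilent arrays of pig endometrium, the tissue that lines the uterus. Explants were cut from the uterine horns of 4 mature gilts (Large White x Polish Landrace, 7 to 8 months old) on days 15 to 16 of gestation. Orexin B (hypocretin 2, a neuropeptide) was added at 10 nM after a preincubation of 2 h, and the explants were cultured for another 24 h, as were untreated explants. Treated and untreated RNA were hybridised together on each array. By the dye labels, arrays 1 and 3 carried the treated RNA in Cy5, and arrays 2 and 4 carried it in Cy3. The labelling protocol mentions no such swap and, as worded, puts treated RNA in Cy5 and untreated RNA in Cy3. The deposited table of ratios follows the dye labels. On arrays 1 and 3 it runs with the scanner software's ratio of Cy5 over Cy3, and on arrays 2 and 4 opposite to it. The dye labels of each array are used here, and several results are also given with treated RNA read as Cy5 on every array. In that reading every ratio is Cy5 over Cy3, so treatment and dye cannot be told apart.

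FOS and JUN encode subunits of AP-1, a dimeric transcription factor that MAP kinases activate and that acts on genes of matrix turnover, inflammation and cell growth. MYC, which pairs with MAX, drives genes of biosynthesis and cell-cycle entry. SOCS3 is induced by STAT3 downstream of receptors such as gp130 and blocks the same receptors in return. Their transcripts are short-lived, and after a single stimulus they are known to peak early and then decline. Orexin B acts on G protein-coupled receptors that can raise calcium and activate MAP kinases. The single time of 24 h therefore shows the level late in culture, not the early response, and all explants, untreated ones included, had been cut, washed and cultured.

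An explant holds the whole endometrium. Of the epithelial markers on the array, 5 of 5 (EPCAM, CDH1, KRT8, CLDN3 and CLDN4) were well above background on all arrays, as were 3 of 3 stromal markers and the progesterone and oestrogen receptor genes PGR and ESR1. Markers of leukocytes (5 of 6), endothelium (3 of 3) and smooth muscle (3 of 3) were above background on all arrays in at least 1 condition too. So were 3 of the 6 genes on the array that were listed as trophoblast and conceptus markers. In such bulk RNA, fewer cells of a type and less RNA per cell cannot be told apart. Which gilt each array came from is not labelled, and each array is taken as 1 replicate. Array 2 was scanned on another day and, by its file header, lay on another slide, although the name of its file carries the slide of the other arrays. The p-values rest on the spread between arrays. For each probe that spread is moderated toward the spread of all fitted probes (2 residual and 5.09 prior degrees of freedom).

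JUN and MYC were measured in every channel, whereas FOS and SOCS3 were close to the floor of the Cy3 channel. The scanner software marks a spot as well above background when its signal clearly exceeds its estimate of the background. By this mark JUN and all 3 MYC probes were detected in 4 of 4 treated and 4 of 4 untreated samples. FOS was detected in 3 of 4 treated and 2 of 4 untreated samples. SOCS3 was detected in 2 of 4 treated and 2 of 4 untreated samples. All 4 Cy5 signals of FOS and SOCS3 were marked, but just 1 Cy3 signal of FOS (array 2) and 0 of SOCS3. Detection of both thus followed the dye: between 46.8% and 86.7% of the 43803 spots were above background in Cy5, against 27.8% to 36.2% in Cy3.

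The 153 negative control spots, which match no transcript, give the same picture on the intensity scale. Their median signal in Cy3 was 375.5, 183, 376 and 383 on arrays 1 to 4, and in Cy5 it was 90, 63, 94 and 93. The SOCS3 signal was 1.31 to 1.64 times the negative control median in Cy3 and 2.52 to 5.11 times in Cy5. For FOS the multiple was 1.26 to 1.74 in Cy3 and 5.21 to 14.6 in Cy5. In Cy3 on array 2 both were below the brightest negative control spot, at 319 for FOS and 300 for SOCS3 against 350. The first MYC probe stood at 3.50 to 15.0 times the negative control median in Cy3 and 26.9 to 86.5 times in Cy5. JUN stood at 61.4 to 161 times in Cy3 and 660 to 1774 times in Cy5, and no spot of the 43803 was saturated.

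**Figure D1:**
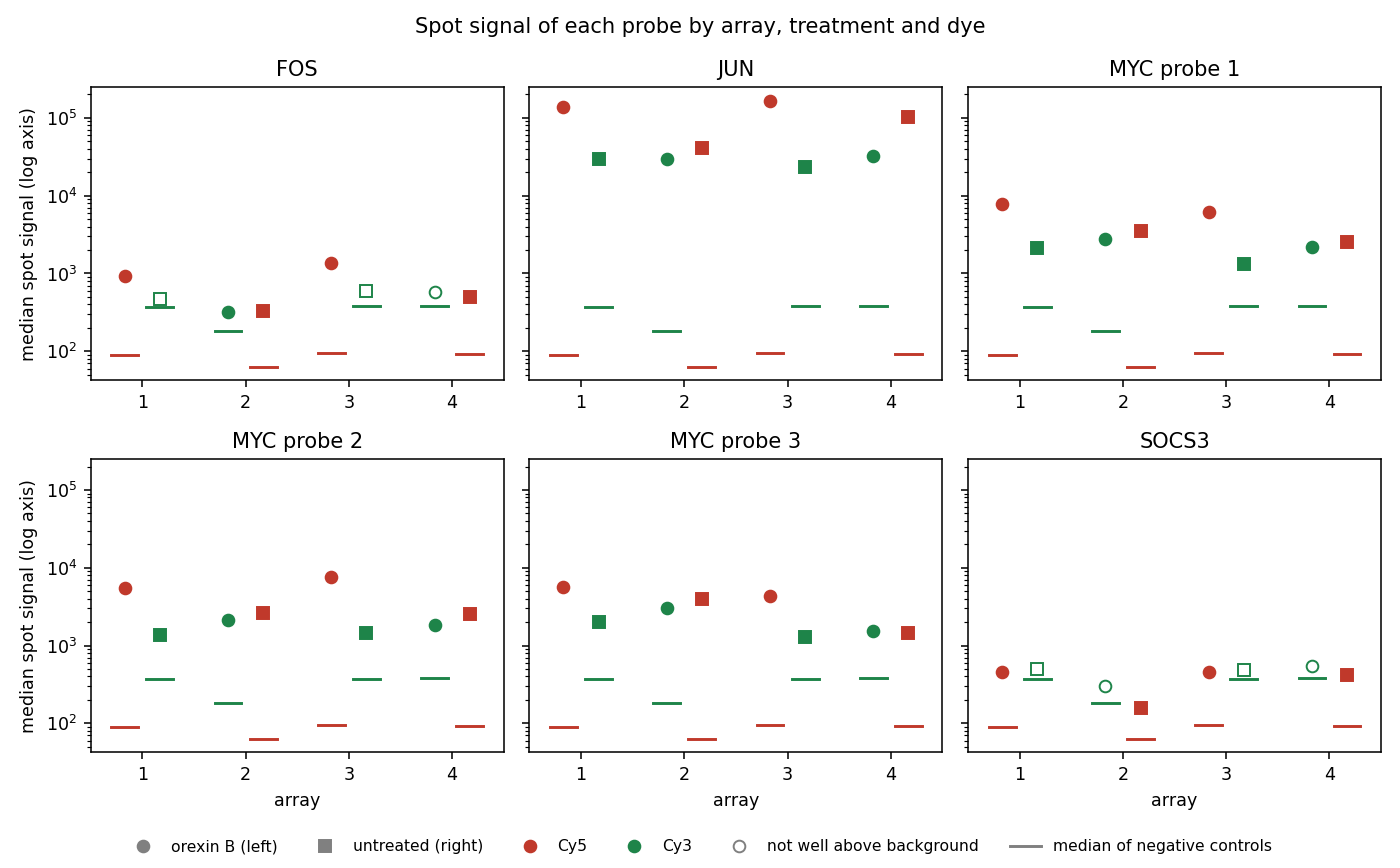
Median spot signal (log axis, arbitrary scanner units) of the 6 probes on arrays 1 to 4, with orexin B explants as circles on the left and untreated explants as squares on the right of each array. Colour gives the dye, open symbols were not well above background, and lines are the median of the 153 negative control spots; the FOS and SOCS3 signals in Cy3 lie next to that line, while JUN and MYC lie well above it.

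JUN, the AP-1 subunit that can also dimerise with itself, showed no difference between treated and untreated explants beyond the spread of the arrays. Its spot signals were 136248, 29523.5, 166776 and 32367 in treated explants on arrays 1 to 4, against 29468, 41566.5, 23093 and 103872 in untreated explants. Every Cy5 signal exceeded every Cy3 signal, whichever RNA it carried, so the raw values sort by dye. After background correction, loess normalisation and scaling between arrays, the JUN level averaged 15.70 ± 0.44 in treated and 15.80 ± 0.86 in untreated explants (log2 intensity, SD, n = 4 each). The treated levels lay between 15.11 and 16.14 and the untreated ones between 14.53 and 16.32, so the groups overlapped, with array 2 lowest in both.

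The log2 ratio of treated over untreated JUN was -0.64, 0.58, -0.18 and -0.17 on arrays 1 to 4. It was thus below 0 on 3 arrays and above 0 on array 2. The limma fit, which separates treatment from dye, gave -0.10 ± 0.21 (moderated SE, n = 4; 95% interval -0.59 to 0.38; adjusted p = 0.999). As a fold this interval runs from 0.666 to 1.30. The dye term of the same fit, Cy5 over Cy3, was larger in size at -0.31 (adjusted p = 0.509). Its unadjusted p was 0.176, and 14.1% of tested probes had a dye term with one under 0.05. Such an order was common: the dye term exceeded the treatment ratio in size for 64% of the tested probes. In the scanner software's own ratio, JUN split fully by dye orientation, at -0.92 and -0.86 on the arrays with treated RNA in Cy5 and 0.65 and 0.26 on those with treated RNA in Cy3. When each array was only centred, with no loess, the JUN ratio was 0.38 beside a median of 0.28 over all tested probes. The sign also turned without array 1 (0.014) or array 4 (0.085).

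MYC stood slightly above 0 with all 3 probes, and none passed the test. The first probe, which stands for the gene in comparisons between genes, had spot signals of 7787, 2739, 6214 and 2197 in treated explants, against 2121, 3514.5, 1317 and 2504 in untreated ones. Its normalised level averaged 11.62 ± 0.24 in treated and 11.36 ± 0.46 in untreated explants (log2 intensity, SD, n = 4 each), and the groups overlapped. On arrays 1 to 4 its log2 ratio was -0.037, 0.21, 0.37 and 0.51. Array 1 alone was below 0, and by little. The fit gave 0.26 ± 0.18 (moderated SE, n = 4; 95% interval -0.17 to 0.69; adjusted p = 0.999 by limma), or 1.20-fold with an interval of 0.892 to 1.61.

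The second MYC probe was higher in treated explants on 4 of 4 arrays, with log2 ratios of 0.31, 0.22, 0.48 and 0.20. Its fitted ratio was 0.30 ± 0.17 (moderated SE; 95% interval -0.10 to 0.70; adjusted p = 0.999 by limma). The unadjusted p was 0.119. That SE borrows its variance from all probes. The 4 ratios of this probe had an SD of 0.13, which is the spread of single arrays and not on the scale of an SE. The third probe was higher on 2 arrays and lower on 2, at -0.36, 0.21, -0.058 and 0.66, with a fitted ratio of 0.11 ± 0.18.

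The 3 MYC probes carry 1 transcript identifier, so they are repeat readings of the same RNA and not further replicates. On array 2 they nearly coincided, between 0.211 and 0.215. On array 1 they ranged from -0.36 to 0.31, a spread of 0.67, and on arrays 3 and 4 they spread over 0.54 and 0.46. On array 1 the probes thus differed from each other by more than the first probe did between arrays. Averaging the probes gave a MYC ratio of 0.23 (adjusted p = 0.962 by limma). If treated RNA is read as Cy5 on every array, the first probe stands at -0.097 and the third at -0.32, while the second stays above 0 at 0.094.

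**Figure D2:**
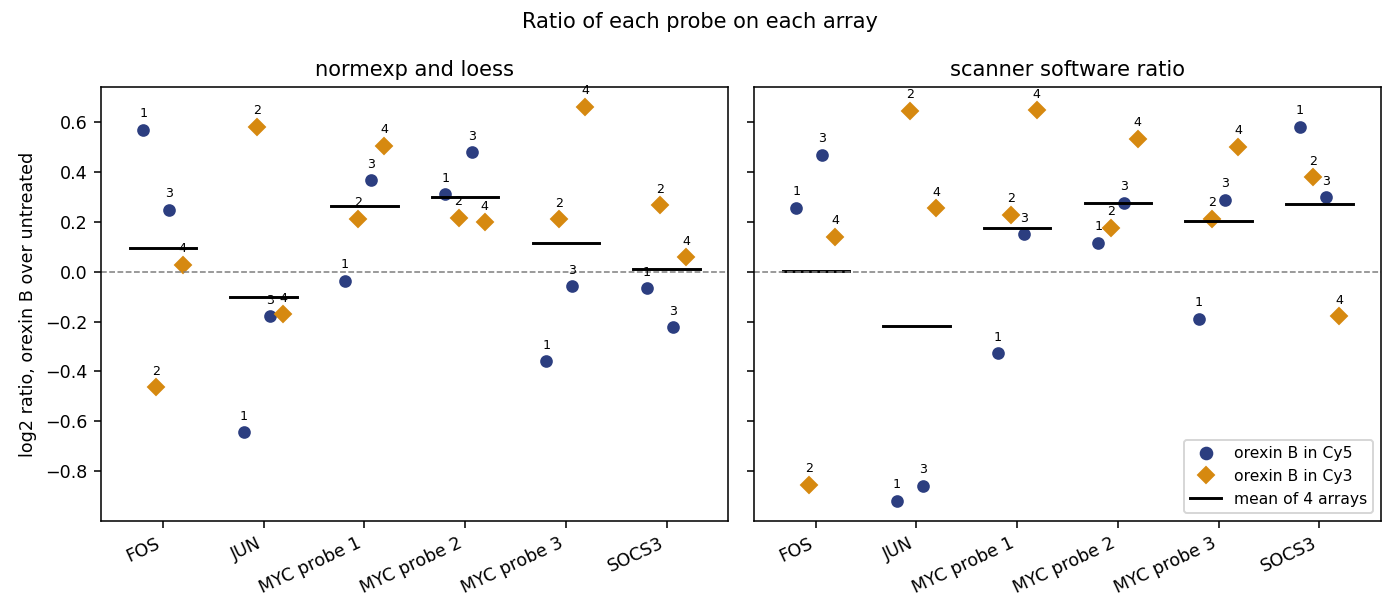
Log2 ratio of orexin B over untreated explants for each probe on each array (numbered), after normexp and loess on the left and as the scanner software gives it on the right, with circles for arrays with treated RNA in Cy5, diamonds for treated RNA in Cy3 and bars for the mean of 4 arrays. The second MYC probe has all 4 loess ratios between 0.20 and 0.48; in the scanner ratio JUN is below 0 on both circles and above 0 on both diamonds.

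FOS, the AP-1 subunit that dimerises with JUN, could not be tested by the rule used for all probes, which asks for detection on all arrays in at least 1 condition. Its signals were 916, 319, 1368 and 578 in treated explants, against 474, 328, 588 and 492 in untreated explants. The normalised level averaged 8.98 ± 0.39 in treated and 8.88 ± 0.30 in untreated explants (log2 intensity, SD, n = 4 each). Arrays 1, 3 and 4 had log2 ratios of 0.57, 0.25 and 0.027, whereas array 2 stood at -0.46. Array 2 is also the array on which both FOS signals were marked as detected, although its Cy3 signal of 319 was below the brightest negative control spot (350). In a fit of all probes without the detection filter, the ratio was 0.095 ± 0.15 (moderated SE; 95% interval -0.27 to 0.46; adjusted p = 0.938 by limma). The dye term was 0.31. The scanner ratio put FOS at 0.26, -0.85, 0.47 and 0.14 on arrays 1 to 4, with a mean of 0.0029. Without array 4 the fitted ratio was -0.028.

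SOCS3, the feedback inhibitor of STAT3 signalling, had a ratio near 0 that rested on signals near background. Its signals were 459.5, 300, 455 and 551.5 in treated explants, against 493, 159, 491 and 423 in untreated explants. The normalised level averaged 8.40 ± 0.20 in treated and 8.39 ± 0.043 in untreated explants (log2 intensity, SD, n = 4 each), so the untreated values lay inside the range of the treated ones. The log2 ratios were -0.065, 0.27, -0.22 and 0.059, below 0 on both arrays with treated RNA in Cy5 and above 0 on both with treated RNA in Cy3. The unfiltered fit gave 0.0092 ± 0.12 (moderated SE; 95% interval -0.30 to 0.32; adjusted p = 0.994 by limma). With the scanner software's background and dye correction, the same spots gave 0.58, 0.38, 0.30 and -0.18, with a mean of 0.27 (adjusted p = 0.884 by limma). Between the 2 ways of background and dye correction the ratio thus differed by more than its SE.

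None of the 4 tested probes was called, against 0% of the 13783 tested probes at an adjusted p under 0.05. At an unadjusted p under 0.05, 0 of the 4 were counted, against 3.59% of all tested probes (495 probes). The second MYC probe passed an unadjusted 0.05 in the limma fit without the detection filter (unadjusted p = 0.0486). In the limma fit with median centring, the first and second did (unadjusted p = 0.0272 and 0.0260). None of these passed after adjustment. Median centring moved the median over the tested probes to 0.28, while over all 43603 probes it was 0.0016. The unadjusted 95% intervals still include a fold of 0.666 for JUN and of 1.61 and 1.63 for the first and second MYC probes. Within the 3 arrays scanned together (without array 2), JUN stood at -0.29, the MYC probes at 0.33, 0.30 and 0.23, FOS at 0.22 and SOCS3 at -0.043, and none passed the adjusted threshold there. Array 2 had the opposite sign to that value for JUN, FOS and SOCS3, at 0.58, -0.46 and 0.27, and for SOCS3 array 4 did too, at 0.059.

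**Figure D3:**
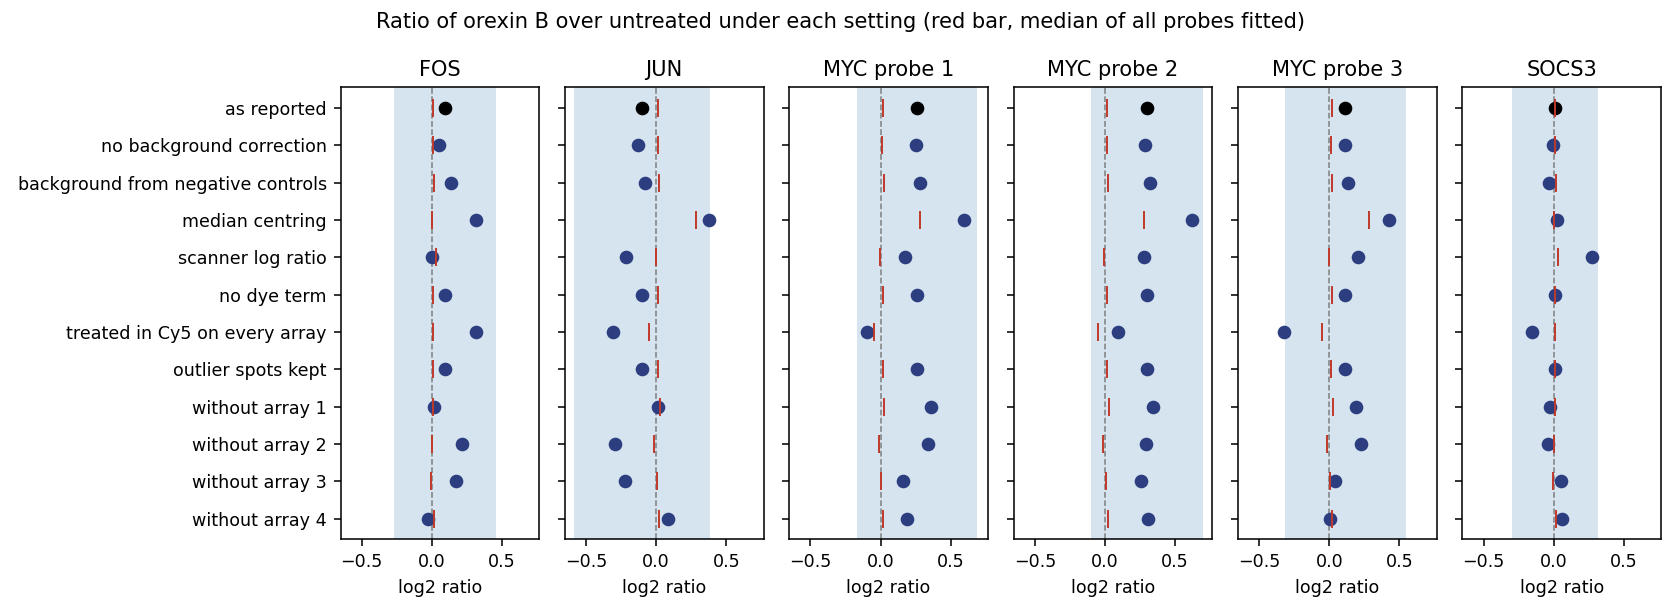
Log2 ratio of orexin B over untreated explants for each probe under each setting (points), with the 95% interval of the reported fit shaded and the median of all probes fitted under that setting as a red bar. All MYC probes and FOS lie above that median under most settings and JUN lies below it under most, while SOCS3 lies on both sides. Median centring moves both JUN and the median in its panel upward.

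By their ratios on the 4 arrays, the genes most like JUN among 1603 other named genes were CAMK2D, a calcium- and calmodulin-dependent kinase, POMC, the precursor of corticotropin, and LIMK2, a kinase of the actin cytoskeleton. Their root mean square differences from JUN were 0.091, 0.10 and 0.11 on the log2 scale over 4 arrays. Those most like the first MYC probe were EEF1E1, a component of the aminoacyl-tRNA synthetase complex, YDJC and PFDN4, a prefoldin subunit, at 0.083, 0.11 and 0.14. EEF1E1 had log2 ratios of -0.081, 0.090, 0.33 and 0.41 on arrays 1 to 4. It was picked by these ratios, so its likeness to MYC is no separate result. FOS and SOCS3 had no tested probe to compare.

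Of 150 genes listed around the 4 genes, 64 were on the array under a RefSeq name and 46 were tested. None passed the adjusted threshold. Of the 46, 22 had a higher and 24 (52.2%) a lower ratio in treated explants, against 56.1% of all 1637 named tested genes and 46.9% of all tested probes. At an unadjusted p under 0.05 there were 9 of the 46 (19.6%), against 5.74% of all named tested genes. The difference was not tested. The lists were chosen with earlier results of these data known, so the higher share is a description of these lists only.

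Among AP-1 partners and other early genes, ATF4, a stress-induced factor that can dimerise with AP-1 proteins, was the 1 tested partner, at -0.30 ± 0.18 (moderated SE). Its 6 probes lay between -0.37 and -0.087. Of 12 tested early and feedback genes, 7 had a higher and 5 a lower ratio. Their median was 0.049, beside -0.023 for all named tested genes and 0.016 for all tested probes. The sign of the list median is not settled. It was -0.10 without array 2, -0.14 without array 3 and -0.19 with treated RNA read as Cy5 throughout. Without array 1 or array 4 it was 0.14. The nuclear receptor gene NR4A3 stood at -0.49 ± 0.17 (unadjusted p = 0.0255 by limma), at -0.30, -0.48, -0.53 and -0.63 on arrays 1 to 4. Every array thus put it lower in treated explants. ID1 and ID3, inhibitors of basic helix-loop-helix factors, stood at 0.70 ± 0.23 and 0.61 ± 0.22, and array 1 was far above the others in both, at 1.62 and 1.63. ID3 was at -0.26 on array 2. Upstream of FOS and JUN, PRKAR1A, a regulatory subunit of protein kinase A, stood at 0.23 ± 0.17. MAP2K1, the kinase of ERK, stood at -0.081 ± 0.17, the lowest of its 4 tested probes, which reached 0.29. Its ratios were 0.55, -0.77, 0.47 and -0.57 on arrays 1 to 4, above 0 where treated RNA was in Cy5 and below 0 elsewhere.

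Genes that AP-1 can activate did not share a direction. Of 10 tested, 6 had a higher and 4 a lower ratio, with a median of 0.27. PTGS2, the inducible cyclooxygenase, had log2 ratios of 0.97, 0.59, 0.32 and 0.75, all above 0. CXCL8, a neutrophil chemokine, had -1.16, -0.22, -1.02 and 0.036. PLAU, the urokinase gene, had 1.22, -0.29, 1.11 and -0.46, above 0 on both arrays with treated RNA in Cy5 and below 0 on the others. If treated RNA is read as Cy5 on every array, the median of the 10 genes is -0.031. It was 0.12 without array 1 and 0.11 without array 4, against 0.30 without array 2 and 0.38 without array 3.

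Of 9 tested MYC partners and targets, 6 had a higher and 3 a lower ratio, with a median of 0.042. That median was -0.16 without array 4, -0.012 without array 1, 0.13 without array 3 and 0.25 without array 2, so its sign rests on single arrays. NME1, a nucleoside diphosphate kinase, stood at 0.79 ± 0.19 (95% interval 0.33 to 1.24; unadjusted p = 0.00471 by limma). Its ratios were 1.41, -0.20, 1.40 and 0.53 on arrays 1 to 4, so array 2 went the other way. HSPE1, a mitochondrial chaperone, stood at 0.29 ± 0.19 and LDHA, lactate dehydrogenase A, at -0.32 ± 0.18.

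Around SOCS3, genes upstream had 2 higher and 5 lower ratios of 7 tested, with a median of -0.10. JAK1, the kinase at gp130 receptors, stood at -0.41 ± 0.19 with its 5 probes between -0.41 and -0.027. IL6, the cytokine that signals through gp130, stood at -0.33 ± 0.22, JAK2, a related kinase of cytokine receptors, at 0.27 ± 0.21 and STAT3 itself at -0.043 ± 0.17. Of the other SOCS genes, SOCS5 was at -0.16 ± 0.17 and SOCS6 at -0.027 ± 0.18, and 2 more on the array (SOCS2 and SOCS4) were too dim to test.

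Of 9 listed STAT3 targets on the array, 4 were tested, and 4 had a lower ratio in treated explants, with a median of -0.50. With treated RNA read as Cy5 on every array it was -0.25. The median on arrays 1 to 4 was -0.49, -0.34, -0.90 and -0.11. ICAM1, an adhesion molecule for leukocytes, stood at -0.58 ± 0.18. SAA3, an acute-phase protein, stood at -0.55 ± 0.22 with 5 probes between -0.71 and -0.36. IRF1, an interferon-responsive factor, stood at -0.45 ± 0.17, and its other tested probe at -0.19. These 3 genes are also known to be induced by other inflammatory signals, and the fourth tested gene, TNFRSF1A, named after its value was seen, was at -0.035. None passed the adjusted threshold. With arrays centred instead, the list stood at -0.16, a difference of -0.44 from all tested probes. Leukocyte markers had lower ratios for 4 of 5 tested genes, from -0.59 to 0.18, as did 3 of 3 endothelial markers (-0.39 to -0.073), 3 of 3 smooth muscle markers (-0.53 to -0.062) and 4 of 5 epithelial markers (-0.54 to 0.35). The 3 stromal markers had higher ratios (0.17 to 0.23), as did 4 of 5 genes of uterine secretion and receptors (-0.14 to 0.82). Of the 3 tested trophoblast and conceptus markers, 2 had a lower and 1 a higher ratio (-0.42 to 1.14). The part of these cell types in the ratios of the STAT3 targets was not tested.

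**Figure D4:**
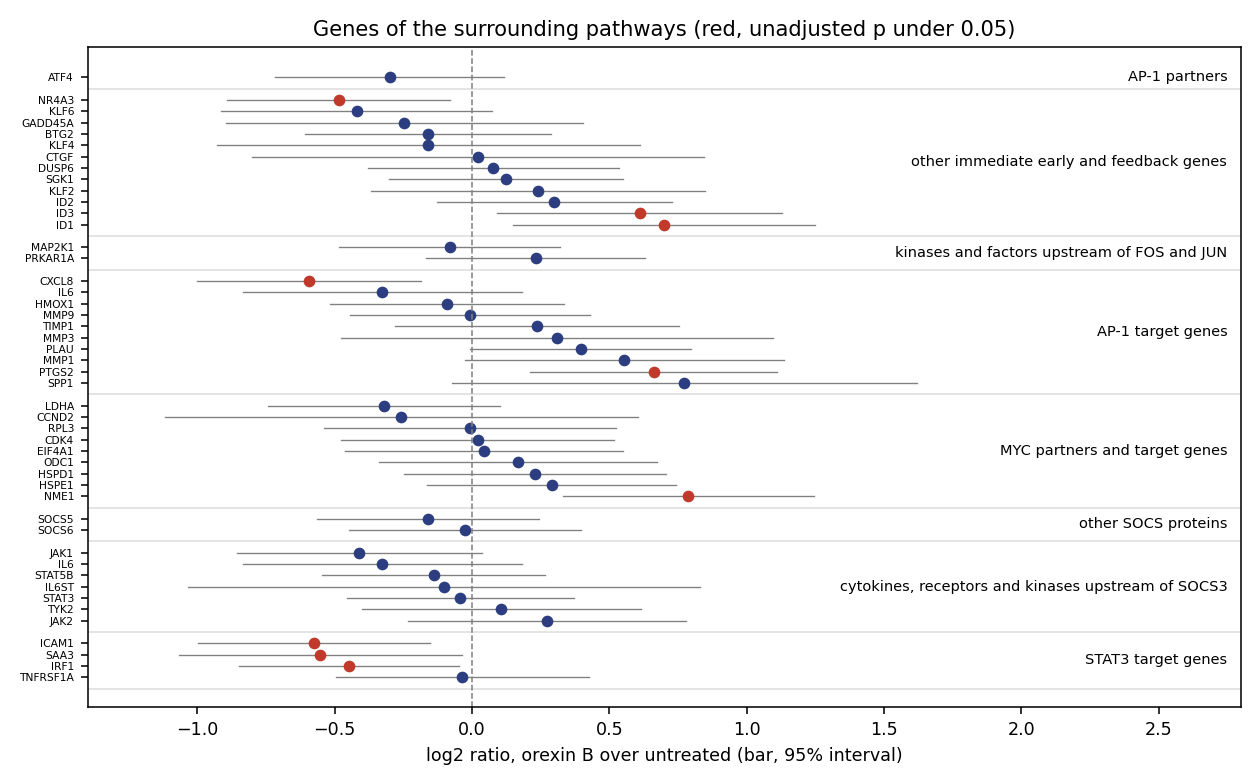
Fitted log2 ratio of orexin B over untreated explants, with its 95% interval, for the 46 tested genes of the lists around FOS, JUN, MYC and SOCS3 (IL6 stands in 2 lists). Red points had an unadjusted p under 0.05 by limma; ICAM1, SAA3 and IRF1 lie below 0, NME1, ID1, ID3 and PTGS2 above 0, and no gene passed after adjustment over all probes.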

How the data were processed

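The deposited spot intensities (median signal and median local background of each channel) and a log10 ratio of Cy5 over Cy3 came from Agilent Feature Extraction 10.7.3.1, per the file headers. The deposited value table holds log2 ratios that match that scanner ratio, with the sign turned on arrays 2 and 4, as by the dye labels. Its column medians were 0.18, 0.29, 0.012 and 0.031. The detection flags are the scanner software's other deposited columns. Here median signals were used, since the columns used hold no mean signal. Background was corrected by normexp (offset 50), each array was normalised by loess, outlier spots were left out and spots of a probe averaged. Levels were scaled between arrays by Aquantile. Limma 3.58.1 (R 4.3.3) fitted treatment and dye (2 residual and 5.09 prior degrees of freedom), with Benjamini-Hochberg adjustment over 13783 probes detected on all arrays in at least 1 condition. The fit was tested on simulated data. RefSeq accessions (Sscrofa11.1 gene table) named 6700 probes of 3029 genes; no coordinates are given, as the files name no build. The number of arrays limits the precision. A gene is its brightest tested probe. Named genes are the 4 genes, the 3 listed genes with the smallest p per list, 7 genes always named where present (STAT3 and IL6; JUNB, FOSL2, ATF3, EGR1 and SOCS1 were not analysed here), and the 3 genes most like each tested member. A further listed gene is not reported here. Members and lists were chosen with earlier results of these data known. Alternatives were no background correction, background from the negative controls (added after seeing the data), median centring, the scanner ratio, the value table, no dye term, treated RNA in Cy5 throughout, other filters, outlier spots kept, probe averages and each array left out.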

Additional observations from a re-analysis of the deposited data

Results flagged for a closer look

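The ratio, the treated level and the untreated level of each of the 6 probes were checked, as 18 sets of 4 arrays. Of these sets, 1 held an array far from the others. By chance alone the rule marks 5% of independent sets. These sets are not independent, since each ratio comes from the 2 levels and 3 probes read MYC, so that share is only a guide. The untreated JUN level on array 2 was 14.53 on the log2 intensity scale, against 16.06 to 16.32 on the other 3 arrays. Its treated JUN level was also the lowest, at 15.11. Array 2 was scanned apart from the other arrays, and the part of this in its JUN level was not tested.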

How the results depend on the processing

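No member probe passed an adjusted p of 0.05 under any alternative run (smallest 0.267, for FOS with treated RNA in Cy5 throughout). The count of called probes was 0 under the alternatives that kept all arrays and 0 to 15 with an array left out; the 15 came without array 2, which is also the value within the shared scan. Leaving out an array gave FOS -0.028 to 0.22, JUN -0.29 to 0.085, the MYC probes 0.16 to 0.36, 0.26 to 0.34 and 0.0012 to 0.23, and SOCS3 -0.043 to 0.061. FOS was -0.028 without array 4; JUN was 0.014 without array 1 and 0.085 without array 4; SOCS3 was -0.030 without array 1 and -0.043 without array 2. Median centring turned JUN to 0.38, which is 0.098 above the median of all tested probes, and that median itself moved to 0.28. SOCS3 turned to -0.0072 with no background correction and -0.033 with background from the negative controls. With treated RNA in Cy5 on every array, SOCS3 was -0.15, the first MYC probe -0.097 and the third -0.32. These values equal the dye terms of the reported fit, because that reading takes Cy5 over Cy3 on every array. The same holds for FOS and JUN, so treatment and dye cannot be told apart there. The cause of the other changes of sign was not tested. FOS and SOCS3 were fitted without the detection filter, so the stricter filter gives them no value. The ratios within arrays already pair treated with untreated RNA, so no further block was fitted. The depth limit is the Cy3 channel, where FOS and SOCS3 stood at most 1.74 times over the negative controls.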
